A study of Drosophila melanogaster with 36 samples.

Results

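The 26S proteasome breaks down proteins tagged with ubiquitin, and the transcripts of its subunits were followed here in whole adult male flies of Drosophila melanogaster. Genes were taken by their current symbol, as those beginning with Prosalpha, Prosbeta, Rpn or Rpt and a digit. The gene table held 48 such genes, 32 general subunits and 16 paralogs whose symbols end in T, R, R1 or R2 (or T1 or T2, for the 2 paralogs of Prosalpha4). Of these, 40 had a probe set that carried no other gene symbol, 26 of them general subunits and 14 paralogs, among 11982 genes with such a probe set on the array. Each of the 40 had 1 such probe set. Those of Prosbeta5, Prosbeta7, Rpn6, Rpn12R and Rpn13 carried the array design's suffix for probes that match several transcripts. Prosalpha1 and Prosalpha1R shared a probe set and were left out, and no probe set was listed for Prosbeta1, Rpn9, Rpn10, Rpt1, Rpt6 and Rpt6R.

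Expression was measured on 36 Affymetrix arrays, 3 in each of 12 groups, with a pool of 40 whole flies behind each array. All flies carried a Gal4 driver and a UAS transgene. The drivers were D42-Gal4 for motoneurons (MN), M1B-Gal4 for glia, or both together (MN+glia). The transgene was either dSOD1, the wild-type fly superoxide dismutase that served as control, or G85R, a mutant human SOD1 linked to amyotrophic lateral sclerosis, and flies were 5 or 45 days old (5d and 45d). The whole fly was extracted, so a transcript level covers all tissues, including those without a driver, and fewer cells of a type and less RNA per cell cannot be told apart. The labels give the driven cell type, transgene, age and replicate. The study's mating scheme names the parents by driver and transgene and not by insertion or genetic background. A transgene therefore cannot be told apart from the rest of its parents' genome, and no flies without a SOD1 transgene were analysed here.

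In the proteasome a barrel of alpha and beta rings encloses the proteolytic sites. The Prosalpha subunits form the outer rings that gate entry, and the Prosbeta subunits form the inner rings, of which Prosbeta2 and Prosbeta5 carry the trypsin-like and chymotrypsin-like sites. A cap of Rpt ATPases, which unfold substrates, and Rpn non-ATPase subunits, which bind and strip ubiquitin, feeds the barrel. Flies carry extra copies of several of these genes, many of which are known in D. melanogaster to be expressed mainly in the male germ line, and Prosalpha6T among them is known to be needed for male fertility.

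All values are log2 signals as deposited, with array medians from 6.41 to 6.56. A gene was called when its limma p value, adjusted by the Benjamini-Hochberg method over all 18769 fly probe sets of a comparison, was at most 0.05. One array stood apart. MN+glia G85R 5d replicate 2 had 3' minus 5' differences of 5.72 for the actin control, 4.29 for GAPDH and 6.34 for eIF-4a, against at most 3.25, 2.17 and 3.28 on the other 35 arrays. It is called the degraded array below, and results that rest on it are given with all arrays and with 35. The study's methods name an array of young flies with the glial driver alone as the degraded one, whereas the array apart here carries the label of both drivers. Labels were used as given, and whether arrays of these young G85R groups were exchanged was not tested, which bears on the values of G85R at 5d in glia and in MN+glia. Of 35 testis marker genes written 30 were measured. Group means lay between 12.0 and 12.9 for the spermatid gene Mst77F and between 11.6 and 12.4 for the testis tubulin betaTub85D, while the meiotic arrest genes aly (3.55 to 3.95) and comr (4.71 to 5.03) stayed below the level of 6 taken as dim in every group.

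Ageing separated the general subunits from the paralogs. In each of the 6 comparisons of 45d with 5d flies, every called general subunit rose and every called paralog fell. In MN dSOD1 flies 20 of 26 general subunits rose, against 26.1% of all probe sets, and 14 of 14 paralogs fell, against 19.2%. In MN G85R flies 23 general subunits rose and 13 paralogs fell, beside 21.8% and 17.4% of all probe sets. Glial dSOD1 flies gave 16 rises and 14 falls (22.3% and 18.1% of all probe sets), and glial G85R flies 12 and 8 (19.3% and 14.9%). MN+glia dSOD1 flies gave 19 and 14 (20.6% and 17.6%).

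In MN+glia G85R flies 17 general subunits rose and 7 paralogs fell, where 16.5% of all probe sets rose and 15.2% fell. Without the degraded array these counts were 19 and 8, beside 16.5% and 14.5%. A fit on the arrays of that comparison alone called 7 members in place of 24. Across the 6 comparisons, general subunits rose in 107 of 156 tests and paralogs fell in 70 of 84. In single comparisons 16.5% to 26.1% of all probe sets rose and 14.9% to 19.2% fell. Genes measured on the same arrays are not independent, so these sums are a description and not a test. The 6 ageing comparisons share no array with each other.

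The shifts were small for the general subunits and larger for the paralogs. The median change of the 26 general subunits lay between 0.13 in glial G85R flies and 0.29 in MN G85R flies. The median of the 14 paralogs lay between -0.52 in MN dSOD1 flies and -0.22 in MN+glia G85R flies, the last being -0.28 without the degraded array. Over all probe sets the median change stayed within -0.02 and 0.03 in the 6 comparisons. All 26 general subunits had a positive difference in 5 of the 6 comparisons, and 24 had one in MN+glia G85R flies.

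**Figure D1:**
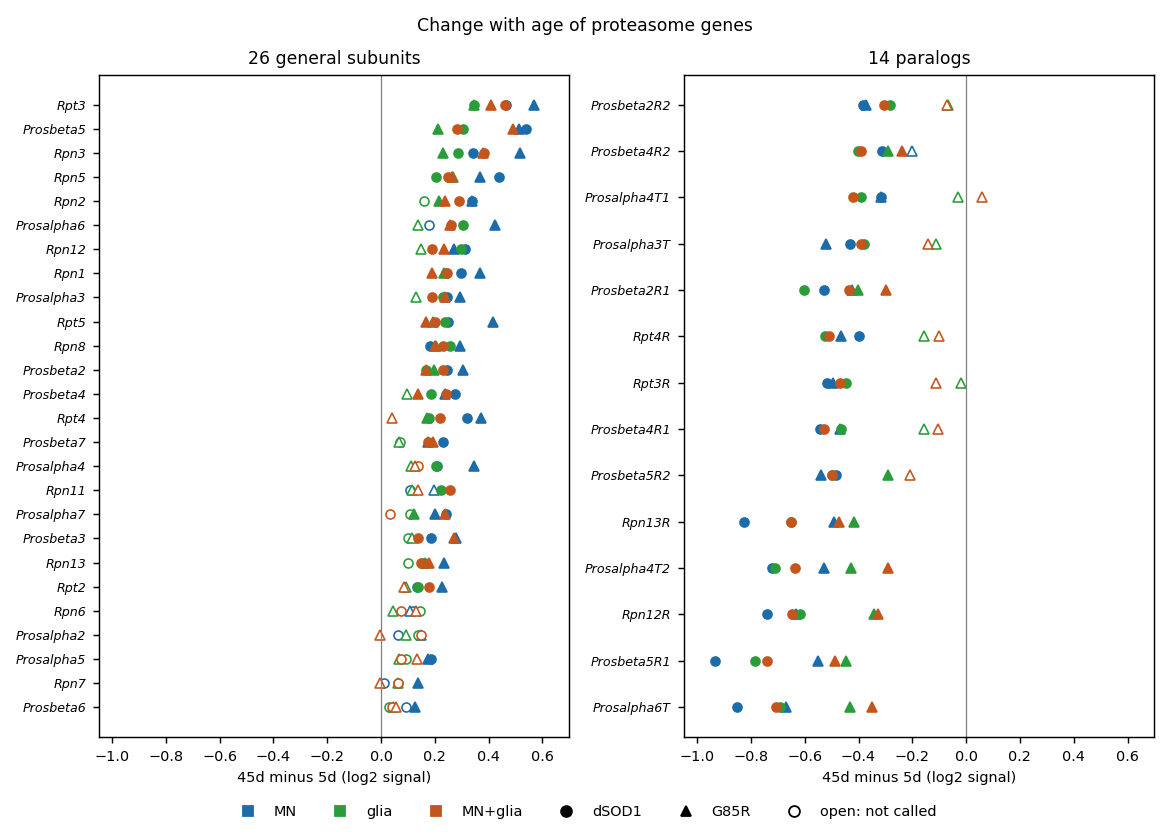
Change with age (45d minus 5d, log2 signal) of the 26 general subunits and the 14 paralogs, by driver (colour) and transgene (circles dSOD1, triangles G85R), filled where called at an adjusted p of at most 0.05. Every filled point of a general subunit lies right of 0 and every filled point of a paralog left of it.

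The 8 general subunits that rose in all 6 comparisons were Prosbeta2, Prosbeta5, Rpn1, Rpn3, Rpn5, Rpn8, Rpt3 and Rpt5. Another 6 rose in 5 comparisons, namely Prosalpha3, Prosbeta4, Rpn2, Rpn12, Rpn13 and Rpt4. These 14 are 53.8% of the general subunits, where 13.5% of all probe sets rose in 5 or 6 of the ageing comparisons. Prosalpha2 and Rpn6, a lid subunit that contacts the barrel, were called in none (Rpn6 rose by 0.15, adjusted p = 0.048, in glial dSOD1 flies on 35 arrays), and Rpn7 and Prosbeta6 in 1.

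Rpt3, an ATPase of the ring at the barrel's mouth, had the widest range of group means among the general subunits, 0.65. In MN dSOD1 flies its values were 10.08, 9.97 and 9.97 at 5d and 10.49, 10.38 and 10.54 at 45d. In MN G85R flies they were 9.69, 9.90 and 9.97 at 5d and 10.42, 10.33 and 10.51 at 45d. No 45d array overlapped the 5d arrays in either pair. The rise was 0.47 ± 0.07 (SE, limma adjusted p = 1.2e-06) with dSOD1 and 0.57 ± 0.07 (adjusted p = 4.9e-08) with G85R, and 0.34 to 0.46 in the other 4 comparisons. Over all drivers and both transgenes the 18 arrays at 5d lay between 9.69 and 10.22, with a median of 10.03, and the 18 arrays at 45d between 10.30 and 10.55, with a median of 10.46.

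Rpt5 rose by 0.42 ± 0.05 and Rpt4 by 0.37 ± 0.06 in MN G85R flies. Rpt2 rose in 4 of the 6 comparisons, by at most 0.23. In MN+glia G85R flies Rpt4 differed by 0.04 (adjusted p = 0.69) with all arrays and rose by 0.16 (adjusted p = 0.02) without the degraded array.

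Among the general beta ring subunits Prosbeta5 had the widest range of group means, 0.62. Its arrays lay between 10.86 and 11.24 at 5d and between 11.25 and 11.57 at 45d, so that the 18 older arrays were all above the 18 younger ones. The rise was 0.54 ± 0.05 (limma adjusted p = 3e-10) in MN dSOD1 flies, 0.51 ± 0.05 in MN G85R flies and 0.49 ± 0.05 in MN+glia G85R flies. It was 0.30 in glial dSOD1, 0.28 in MN+glia dSOD1 and 0.21 in glial G85R flies. Prosbeta2 rose by 0.17 to 0.30 over the 6 comparisons. Prosbeta6, at the other end, rose by 0.13 in MN G85R flies and was not called elsewhere.

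The cap's non-ATPase subunits were led by Rpn3 and Rpn5, both of the lid. Rpn3 rose by 0.52 ± 0.07 (limma adjusted p = 8.8e-07) in MN G85R flies, from 9.23, 9.41 and 9.50 at 5d to 9.93, 9.79 and 9.97 at 45d, and by 0.23 to 0.38 in the other comparisons. Rpn5 rose by 0.44 ± 0.06 in MN dSOD1 flies and by 0.20 to 0.37 elsewhere. Rpn1 and Rpn2, the large scaffold subunits of the base, reached 0.37 and 0.34 in MN G85R flies. Rpn11, the deubiquitinase of the lid, was called in the glial and MN+glia dSOD1 flies only among the 6 comparisons, at 0.22 and 0.26. Of the alpha ring, Prosalpha6 rose by 0.42 ± 0.08 in MN G85R flies and by 0.31 ± 0.08 in glial dSOD1 flies, and Prosalpha3 rose by 0.19 to 0.29 in 5 comparisons.

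The paralogs fell with age in the opposite direction from the subunits they resemble. The 6 that fell in all 6 comparisons were Prosalpha4T2, Prosalpha6T, Prosbeta2R1, Prosbeta5R1, Rpn12R and Rpn13R, and Prosbeta4R2 and Prosbeta5R2 fell in 5. These 8 are 57.1% of the paralogs, where 11.6% of all probe sets fell in 5 or 6. The other 6 (Prosalpha3T, Prosalpha4T1, Prosbeta2R2, Prosbeta4R1, Rpt3R and Rpt4R) fell in 4, being called in neither glial G85R nor MN+glia G85R flies with all arrays. Prosalpha3T fell by 0.28 (adjusted p = 0.017) in the latter without the degraded array.

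Prosalpha6T had values of 9.24, 9.34 and 9.19 in 5d MN dSOD1 flies and 8.32, 8.38 and 8.51 at 45d. The 2 groups did not overlap, and the fall was 0.85 ± 0.08 (limma adjusted p = 1.5e-10), or 1.80-fold. Prosbeta5R1 fell further in these flies, by 0.93 ± 0.07 (adjusted p = 1.8e-12), or 1.91-fold, from 8.45, 8.57 and 8.52 to 7.56, 7.52 and 7.65. Its partner gene Prosbeta5 rose in the same 6 arrays.

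Other paralogs showed the same order of ages. Rpn13R, a copy of the ubiquitin receptor Rpn13, fell by 0.83 ± 0.12 in MN dSOD1 flies, where its 45d arrays read 6.57, 7.07 and 7.13. Rpn12R fell by 0.74 ± 0.08 and Prosalpha4T2 by 0.72 ± 0.08 in the same flies. Prosbeta5R1 and Prosalpha6T were among the 3 largest falls in each of the 6 comparisons, down to 0.45 for Prosbeta5R1 in glial G85R flies and 0.35 for Prosalpha6T in MN+glia G85R flies (0.48 without the degraded array). Prosbeta2R1 fell by 0.60 ± 0.07 in glial dSOD1 flies, its largest change. Prosbeta4R2 fell by 0.31 to 0.40 with dSOD1 at a signal between 4.11 and 4.80 on all arrays, and it was the member that a filter on dim probe sets removed.

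The range of the 12 group means was wider for the paralogs. It ran from 0.53 (Prosbeta4R2) to 1.72 (Prosbeta5R2) among the 14 paralogs, with a median of 0.76, and from 0.14 (Rpn7) to 0.65 (Rpt3) among the general subunits, with a median of 0.39. The median over all probe sets was 0.43. The spread within groups was also wider for the paralogs, with a median SD of 0.11 against 0.064 for the general subunits. Means over the 36 arrays lay between 4.49 and 8.91 for the paralogs and between 9.37 and 11.41 for the general subunits. The part of spread and signal level in the wider ranges was not tested. Prosbeta5R1 spanned 1.17, Rpn13R 0.99, Rpn12R 0.91, Prosalpha6T 0.88, Prosbeta2R1 0.83, Prosbeta4R1 0.77 and Prosalpha4T2 0.75. The remaining 5 spanned 0.69 (Rpt3R), 0.67 (Prosalpha3T), 0.64 (Prosbeta2R2), 0.58 (Prosalpha4T1) and 0.55 (Rpt4R). For 12 of the 14 paralogs the lowest group was MN dSOD1 45d. Prosbeta5R2 was lowest in MN G85R 45d and Rpt4R in glia dSOD1 45d. In the moderated F test over all groups, 24 of 26 general subunits and 14 of 14 paralogs were called, beside 70.7% of all probe sets, and the exceptions were Prosbeta6 (adjusted p = 0.063) and Rpn7 (adjusted p = 0.31).

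The testis markers moved with the paralogs. They fell in 28, 25, 26, 21, 26 and 20 of 30 genes in the 6 comparisons in the order above, with medians from -0.69 in MN dSOD1 to -0.37 in MN+glia G85R flies. Over all probe sets 14.9% to 19.2% fell. Of the 30, sa alone rose, in the last comparison (0.27, adjusted p = 0.026, not called without the degraded array). The largest falls in MN dSOD1 flies were those of boly (1.06 ± 0.09) and djl (0.97 ± 0.15), and in other comparisons bb8, janB and Mst84Db were among the leading falls, at 0.74 ± 0.08 for bb8 in MN G85R flies, 0.89 ± 0.08 for janB in MN+glia dSOD1 flies and 0.64 ± 0.08 for Mst84Db in glial G85R flies. The part of the germ line in the paralogs' fall was not tested, since whole flies were extracted.

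Array by array, the median deviation of the paralogs from their own means lay between -0.47 and -0.02 at 45d and between 0.12 and 0.37 at 5d, apart from the degraded array at -0.15. The testis markers lay between -0.60 and -0.06 at 45d and between 0.14 and 0.35 at 5d, apart from the degraded array at -0.0021. General subunits lay between 0.04 and 0.15 at 45d and between -0.20 and 0.02 at 5d, where the degraded array, at -0.083, sat inside the range. Accessory gland genes also fell, 9 of 11 in each comparison, while 1, Acp26Ab, rose in each. Falls were also called in 3 to 6 of 6 muscle genes and 2 to 5 of 8 neuron genes, with no muscle or neuron gene rising except 2 muscle genes in MN G85R flies. Of 7 glial genes 2 to 4 rose and up to 2 fell, and of 7 fat body genes 1 to 5 rose and none fell. The fat body list includes the female yolk protein genes Yp1, Yp2 and Yp3, measured here in males. Over all probe sets 16.5% to 26.1% rose and 14.9% to 19.2% fell. In lists this short the smaller counts are not told apart from those shares.

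**Figure D2:**
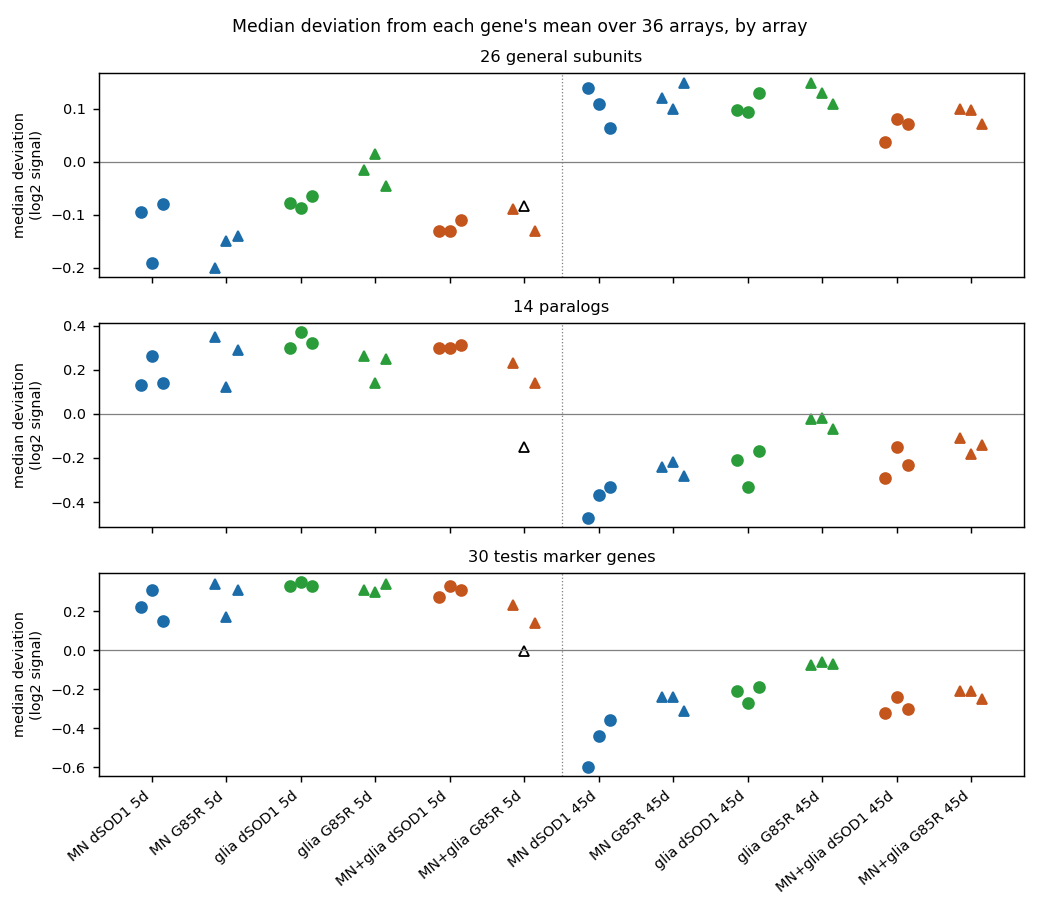
Median deviation (log2 signal) of the 26 general subunits, the 14 paralogs and the 30 testis markers from each gene's mean over 36 arrays, 1 point per array, with 5d groups left and 45d groups right of the dotted line. General subunits are higher and paralogs and testis markers lower on the 45d arrays, and the open black triangle, the degraded array, lies among the 45d arrays for the paralogs.

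G85R moved few members in comparison with age. In 5d flies with G85R in MN 1 member rose and 1 fell, beside 4.35% and 3.64% of all probe sets, and at 45d 2 rose and 1 fell (5.18% and 4.84%), or 3 and 3 on 35 arrays. In glia 1 rose and 1 fell at 5d (2.70% and 2.93%) and 3 rose and 1 fell at 45d (4.89% and 5.09%), where Prosalpha4T2 and Prosalpha6T also rose on 35 arrays. In MN+glia 2 rose and 1 fell at 45d (3.02% and 4.01%). At these sizes the shares of members are near those of all probe sets, so the counts say nothing particular of the proteasome genes, and the results below are those of named genes.

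At 5d in MN+glia 8 members fell and 0 rose, where 7.82% of all probe sets fell and 6.05% rose. Without the degraded array 1 fell and 0 rose, beside 3.58% and 2.93%. The 7 genes whose call went with that array were Prosalpha4T1, Prosalpha4T2, Prosalpha6T, Rpn12R, Rpt3R, Rpt4R and the general subunit Prosalpha7. Prosalpha4T1, for instance, read 6.98, 6.52 and 6.91 in these G85R flies against 7.20, 6.97 and 7.18 in dSOD1 flies, where 6.52 was the degraded array. The difference of -0.31 ± 0.09 (limma adjusted p = 0.025) became -0.17 (adjusted p = 0.29). Rpt3R read 8.23, 8.19 and 8.23 against 8.45, 8.50 and 8.41, groups that did not overlap, and its difference was -0.23 with all arrays and -0.22 (adjusted p = 0.096, not called) without the degraded one.

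Prosbeta5R2 (CG31742), a paralog of the chymotrypsin-like subunit, was the member that G85R moved most. It fell in all 6 comparisons, as did 0.613% of all probe sets, while 0.586% rose in all 6. At 5d the arrays of G85R flies read 6.61, 6.37 and 6.55 in MN, 6.87, 6.58 and 6.73 in glia, and 6.51, 6.35 and 6.29 in MN+glia. Those of dSOD1 flies read 7.11, 7.46 and 7.36, 7.63, 7.76 and 7.67, and 7.48, 7.49 and 7.57. At 5d each G85R array was therefore below each dSOD1 array, whatever the driver.

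At 45d the same held. G85R flies read 6.04, 6.03 and 5.83 in MN, 6.44, 6.46 and 6.42 in glia, and 6.13, 6.38 and 6.02 with both drivers, and dSOD1 flies lay between 6.52 and 7.31. The fall at 5d was 0.80 ± 0.11 for MN (limma adjusted p = 5.7e-06), 0.96 ± 0.11 for glia (adjusted p = 2.3e-07) and 1.13 ± 0.11 for both drivers (adjusted p = 8.5e-09). At 45d it was 0.86 ± 0.11 for MN, 0.75 ± 0.11 for glia and 0.84 ± 0.11 for both drivers, with adjusted p values from 1.4e-06 to 1.1e-05. These falls are 1.68-fold to 2.18-fold. The lowest group mean of Prosbeta5R2, 5.97 in MN G85R 45d flies, was near the level of 6 taken as dim. Without the degraded array the MN+glia value at 5d was -1.11 (adjusted p = 2.2e-07). None of the 3 changes of this effect with age or of its 6 differences between drivers was called for Prosbeta5R2.

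**Figure D3:**
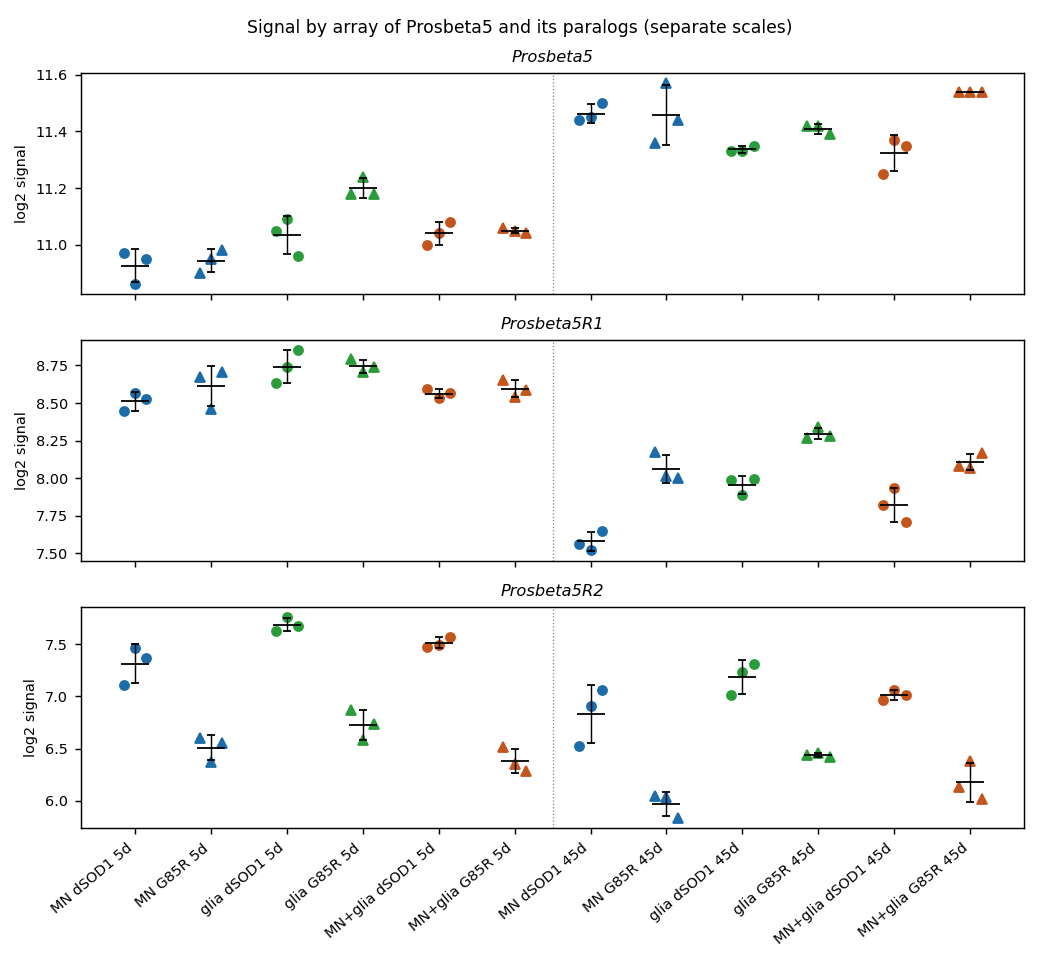
Log2 signal of Prosbeta5 and its paralogs Prosbeta5R1 and Prosbeta5R2 on each array, with group means and SD (n = 3) as black bars, circles for dSOD1 and triangles for G85R, each panel on its own scale. With age Prosbeta5 is higher and both paralogs lower, and with G85R Prosbeta5R2 is lower at both ages while Prosbeta5R1 is higher at 45d.

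Prosbeta5R1, the other paralog of the same subunit, went the opposite way in old flies. At 45d its G85R arrays read 8.17, 8.02 and 8.003 with the MN driver, 8.27, 8.34 and 8.28 with the glial driver, and 8.08, 8.07 and 8.17 with both. The dSOD1 arrays read 7.56, 7.52 and 7.65, 7.99, 7.89 and 7.99, and 7.82, 7.94 and 7.71, so that no 45d G85R array overlapped a 45d dSOD1 array. The rise was 0.48 ± 0.07 (limma adjusted p = 5.3e-06) for MN, 0.34 ± 0.07 (adjusted p = 0.00068) for glia and 0.28 ± 0.07 (adjusted p = 0.0059) for both drivers. The last value was 0.23 (adjusted p = 0.071) without MN+glia dSOD1 45d replicate 3, and it was not called in a fit on the arrays of that comparison alone (adjusted p = 0.067).

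At 5d Prosbeta5R1 differed by 0.10, 0.003 and 0.03 in the 3 drivers, none of them called. The change between the ages was called for MN, at 0.39 ± 0.10 (limma adjusted p = 0.032), and not for glia, at 0.34 ± 0.10 (adjusted p = 0.062, or 0.046 without the degraded array). The MN call was lost without any of 6 single arrays, replicates 2 and 3 of dSOD1 and 2 of G85R at 5d and replicates 1 and 2 of dSOD1 and 1 of G85R at 45d, at 0.31 to 0.38 with adjusted p values from 0.06 to 0.14. That call was also lost in a fit on the arrays of the comparison alone (adjusted p = 0.18). In both G85R and dSOD1 flies the gene fell with age, by 0.55 and 0.93 in MN.

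Prosbeta5 itself rose by 0.17 ± 0.05 in glia at 5d (limma adjusted p = 0.043) and by 0.22 ± 0.05 in MN+glia at 45d (adjusted p = 0.0049). In glia its arrays read 11.18, 11.24 and 11.18 against 11.05, 11.09 and 10.96 with dSOD1. The first call was lost without any single array of that pair other than glia dSOD1 5d replicate 2, at 0.13 to 0.18 with adjusted p values from 0.078 to 0.25. It was also lost after quantile normalisation (adjusted p = 0.077) and in a fit on the arrays of that comparison alone (adjusted p = 0.12). The second was 0.18 (adjusted p = 0.052) without MN+glia dSOD1 45d replicate 1, and it was not called on its own arrays (adjusted p = 0.096).

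Prosbeta2R2, a copy of the trypsin-like subunit, rose with G85R in MN by 0.26 ± 0.07 at 5d (limma adjusted p = 0.025) and 0.27 ± 0.07 at 45d (adjusted p = 0.014). The 5d arrays overlapped, at 8.56, 8.23 and 8.56 against 8.15, 8.25 and 8.17. The 5d call was lost without replicate 1 or 3 of either group (0.21 to 0.25, adjusted p from 0.092 to 0.18), and the 45d call without MN dSOD1 45d replicate 1 (0.19, adjusted p = 0.16). Fitted on the arrays of each comparison alone, neither was called (adjusted p = 0.18 at 5d and 0.1 at 45d). In glia at 45d Prosbeta4R1 rose by 0.29 ± 0.09 (adjusted p = 0.04) and Rpt3R by 0.23 ± 0.07 (adjusted p = 0.028). The call of Prosbeta4R1 was lost without any array of the pair except glia dSOD1 45d replicate 3, and that of Rpt3R without replicate 1 or 2 of dSOD1 or replicate 2 or 3 of G85R.

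Over the paralogs as a group, most differences with G85R were positive at 45d, in 13 of 14 genes for MN, 13 for glia and 12 for MN+glia, with medians of 0.16, 0.17 and 0.11, and Prosbeta5R2 was negative in all 3. Over all probe sets these medians were -0.01, 0.003 and 0.0003. Rises were called in 2, 3 and 1 of the paralogs, beside 5.18%, 4.89% and 3.02% of all probe sets. Genes on the same arrays are not independent, so the counts of positive differences are a description and not a test. At 5d the medians were 0.06, -0.08 and -0.23 (-0.14 without the degraded array), and 10, 2 and 1 were positive. The testis markers had medians of 0.19, 0.15 and 0.08 at 45d and 0.05, -0.05 and -0.19 (-0.11 without the degraded array) at 5d. In MN at 45d 12 of the 30 rose and 1 fell, beside 5.18% and 4.84% of all probe sets. The rises were led by can (0.51 ± 0.15) and boly (0.40 ± 0.09), where can had group means from 5.07 to 6.11, about the dim level of 6. At 45d 3 rose and 1 fell in glia (4.89% and 5.09% of all probe sets). In MN+glia 1 rose and 1 fell (3.02% and 4.01%). Mst84Db fell with G85R in 5 of the 6 comparisons, by 0.27 to 0.54, glia at 5d being the exception. The part of the germ line in these values was not tested. Of the general subunits, 0 were called in MN at 5d (limma, 7 at an unadjusted p under 0.05) and 0 at 45d (2 at an unadjusted p under 0.05). On 35 arrays Prosalpha7 (-0.14, adjusted p = 0.042) and Rpn12 (-0.17, adjusted p = 0.037) fell in MN at 45d. The medians of the 6 comparisons lay between -0.07 and 0.04.

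**Figure D4:**
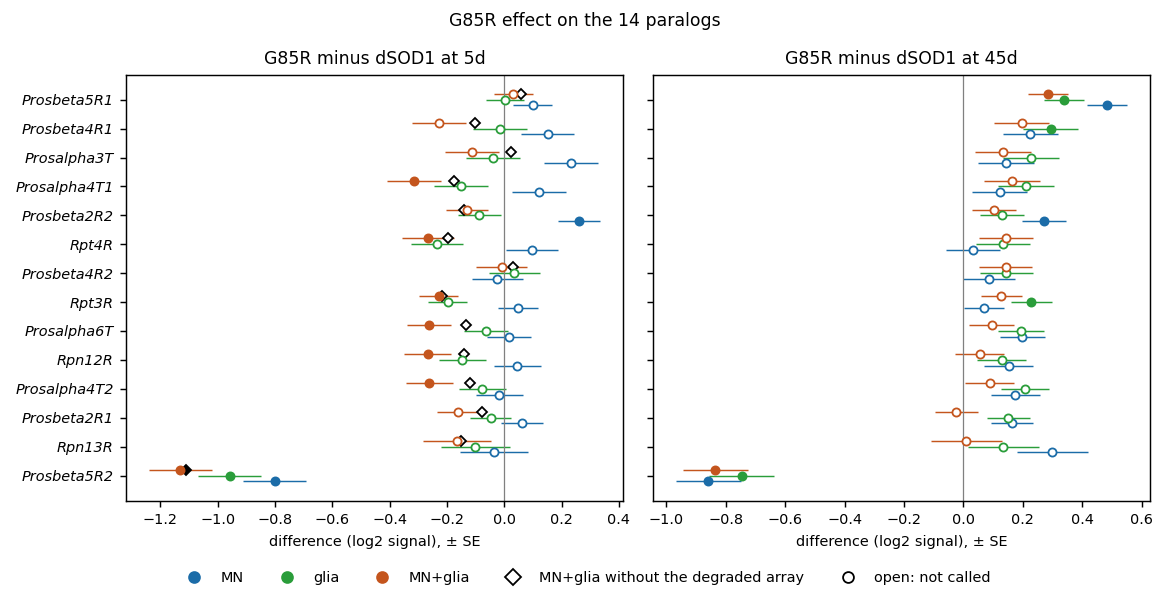
G85R minus dSOD1 (log2 signal, mean ± SE from the fit) for the 14 paralogs at 5d and 45d, by driver, filled where called, with black diamonds for MN+glia at 5d without the degraded array. Prosbeta5R2 stands between -1.13 and -0.75, and the other paralogs lie within -0.31 and 0.48.

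The test of the change of the G85R effect with age was called in 4 of 120 member tests (3.33%), beside 2.36% of all probe set tests. Besides Prosbeta5R1 in MN these were Rpt3R in glia (0.43 ± 0.10, limma adjusted p = 0.014), Rpt3R in MN+glia (0.36 ± 0.10, adjusted p = 0.034) and Prosalpha4T1 in MN+glia (0.48 ± 0.13, adjusted p = 0.038). Both MN+glia calls were lost without the degraded array, at 0.34 (adjusted p = 0.094) and 0.34 (adjusted p = 0.17), and each was also lost without 7 of the other 11 single arrays. In glia Rpt3R stood at 8.05, 7.96 and 8.07 with G85R against 8.25, 8.21 and 8.22 with dSOD1 at 5d. At 45d it stood at 7.97, 8.04 and 8.01 against 7.72, 7.76 and 7.86, so the groups did not overlap at either age. The difference of -0.20 at 5d was not called. That of 0.23 at 45d was called, and the call was lost without any of 4 single arrays. An opposite effect at 5d is therefore not shown. The change of the glial effect with age was 0.40 (adjusted p = 0.051) without glia dSOD1 45d replicate 1 and 0.39 (adjusted p = 0.053) without glia G85R 5d replicate 2.

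Differences of the G85R effect between drivers were called in 1 of 240 member tests (0.417%), beside 1.11% of all probe set tests. It was Prosbeta2R2, whose effect at 5d was lower by 0.39 ± 0.10 in MN+glia than in MN (limma adjusted p = 0.041). Without the degraded array the value was -0.40 (adjusted p = 0.074), and the call was also lost without any of 6 other single arrays.

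Flies with different drivers but the same transgene and age differed in 64 of 480 member tests (13.3%), beside 18.0% of all probe set tests, with 33 calls among general subunits and 31 among paralogs. The driver parents differ, so the driven cells cannot be told apart from the rest of the parents' genome. Rpn6, not called in any ageing comparison with all arrays, was higher in MN than in glial flies at 5d with dSOD1 (arrays from 11.22 to 11.30 against 10.93 to 11.02). The difference was 0.28 ± 0.07 (limma adjusted p = 0.003), and it was 0.25 and 0.24 at 45d with dSOD1 and G85R. Rpn6 was also higher in MN+glia than in glial dSOD1 flies, by 0.31 at 5d and 0.24 at 45d. It was not called between MN and glial G85R flies at 5d, nor between MN+glia and glial G85R flies at either age.

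Prosbeta2R1 was lower in MN than in glial flies by 0.30 at 5d and 0.23 at 45d with dSOD1 and by 0.21 at 45d with G85R, and lower in MN+glia than in glial flies by 0.26 to 0.38 in 3 comparisons (0.29 in place of 0.38 without the degraded array). The calls at 5d with dSOD1 and at 45d with G85R against MN+glia were lost without MN+glia dSOD1 5d replicate 2 (-0.23, adjusted p = 0.058) and glia G85R 45d replicate 1 (-0.24, adjusted p = 0.055). At 45d Prosbeta5R2 was lower in MN than in glial flies by 0.36 with dSOD1 and 0.47 with G85R, and the dSOD1 value was -0.20 (adjusted p = 0.19) without MN dSOD1 45d replicate 1, -0.33 (adjusted p = 0.073) without glia dSOD1 45d replicate 2 and -0.29 (adjusted p = 0.1) without glia dSOD1 45d replicate 3. In 5d G85R flies 11 general subunits were lower in MN than in glia, where 10.7% of all probe sets were lower (14 and 12.8% on 35 arrays), led by Prosalpha6 (0.41 ± 0.08), Rpn3 (0.34 ± 0.07) and Prosalpha4 (0.33 ± 0.07), and the 4 measured Rpt ATPases were among them. In the same pair Rpt3R was higher in MN by 0.30 ± 0.07. In dSOD1 flies of that age 1 general subunit, Rpn13, was lower in MN than in glia (9.15% of all probe sets), by 0.19, or 0.16 (adjusted p = 0.053) without MN dSOD1 5d replicate 1. The test of the difference between these comparisons called 0 of the 26 general subunits (limma, 7 at an unadjusted p under 0.05), so they are not shown to differ.

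Rpn13 was also lower in MN than in glial flies at 45d, by 0.14 with dSOD1 and 0.17 with G85R, both lost without some single arrays. Prosbeta2R2 was lower in MN than in glial dSOD1 flies by 0.31 at 45d (limma adjusted p = 0.0024) and lower than in MN+glia dSOD1 flies by 0.33 (adjusted p = 0.0022). Prosbeta5R1 was lower in MN than in glial flies at 45d, by 0.38 with dSOD1 (adjusted p = 1e-04) and 0.23 with G85R. Rpn12R was lower there too, by 0.30 and 0.27, the G85R call being lost without any of 4 single arrays (adjusted p from 0.052 to 0.091), and Prosbeta2 was higher, by 0.19 with dSOD1. Rpt3R was higher in MN+glia than in MN flies at 45d, by 0.22 with dSOD1 and 0.28 with G85R, a pair of calls that were lost without single arrays. Between MN+glia and MN G85R flies at 5d, Rpt5 was higher in MN+glia by 0.22 (adjusted p = 0.0022) with all arrays and 0.19 (adjusted p = 0.016) without the degraded array, while the calls of Prosalpha6, Rpt3, Rpt4, Prosalpha4T2 and Prosalpha6T were lost without it.

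Other genes of the ubiquitin pathway gave 22 measured of 25 written. With age 6 to 11 of them rose and 3 to 7 fell in the 6 comparisons, beside 16.5% to 26.1% and 14.9% to 19.2% of all probe sets. REG, the 11S activator that opens the barrel, Rad23, which shuttles ubiquitin conjugates, Sem1, a small lid subunit, RpL40, a ubiquitin fusion, and cnc, a transcription factor of the Nrf family, rose in all 6. REG rose most in MN dSOD1 flies, by 0.56 ± 0.06 (limma adjusted p = 4.5e-09). Uch-L5R, the paralog of the proteasome-bound deubiquitinase Uch-L5, and ntc, an F-box protein known from spermatid differentiation, fell in all 6. Uch-L5R fell by 0.72 ± 0.07 and ntc by 0.60 ± 0.07 in MN dSOD1 flies, and Uch-L5 itself also fell, in 5 comparisons. Keap1, the inhibitor of cnc, rose by 0.57 ± 0.08 in MN+glia dSOD1 flies, and Npl4, a cofactor of the p97 ATPase, fell by 0.55 ± 0.06 in MN+glia G85R flies.

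With G85R, Ube3a, a ubiquitin ligase, fell in all 6 comparisons, by 0.38 ± 0.06 in glia at 45d to 0.71 ± 0.06 in MN+glia at 5d (limma adjusted p = 8.9e-11). The transcription factor partner maf-S fell in 4 of the 6, by up to 0.31 in MN at 45d. Keap1 rose by 0.29 in MN at 5d, and ntc and its partner PI31 rose at 45d in glia (0.29 and 0.19) and in MN+glia (0.22 and 0.19). Among probe sets with 1 gene symbol, Ube3a was also the one whose 12 group means followed those of Prosbeta5R2 most closely, with a Pearson r of 0.979 over the 12 groups. CG10909 (0.961), CG13999 (0.952), CG4686 (0.947) and CG32219 (0.93) came next. The 12 groups share transgene and age, so r describes the pattern and is given without a test. CG13999 fell with G85R by 0.63 to 1.08 and CG4686 by 0.38 to 0.72, both in all 6 comparisons, while CG10909 was called in 4 and CG32219 in 4. Over all probe sets 0.613% fell in all 6. The CG genes were picked for their likeness to Prosbeta5R2, which fell with G85R, so their falls follow from the choice and are no separate result.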

How the data were processed

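RNA from 36 pools of 40 whole male flies, 3 biological replicates in each of 12 groups, was hybridised to Affymetrix Drosophila Genome 2.0 arrays. The authors background-corrected, normalised and summarised the probes by RMA in the Robin software and deposited 1 log2 value per probe set and array. Whether all arrays were normalised together is not given in the sources used here. Array number, not read depth, limits the precision. All columns were mapped to samples (0 left over).

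Groups were taken from the labels. In R 4.3.3 with limma 3.58.1, a mean per group was fitted over all 36 arrays (24 residual and 5.77 prior degrees of freedom) and 33 comparisons were drawn, namely 6 of G85R with dSOD1, 6 of age, 3 changes of the G85R effect with age, 6 differences of that effect between drivers and 12 differences between drivers. A moderated F test covered all groups. P values were adjusted over 18769 probe sets, with 183 control probe sets left out, and SE is the fit's moderated standard error.

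Probe sets were named through a platform annotation updated to current symbols, which gave 13647 probe sets 1 symbol, 402 several and 4720 none. Named genes were, in each comparison, the called members with up to 3 largest changes each way among general subunits and among paralogs, each paralog's range, members called alike in 5 or 6 comparisons, up to 2 leading genes each way of the testis and ubiquitin lists, and the 5 probe sets closest to the member most often called with G85R. The smaller of these changes between drivers are given as counts. Lists of testis, accessory gland, neuron, glia, muscle and fat body markers and of other ubiquitin genes were written by hand. The members and lists were chosen with earlier results of these data known. The authors' comparisons and sequences of the members were not used here.

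Alternatives were 35 arrays, quantile and cyclic loess normalisation, a filter on dim probe sets (log2 over 6 on at least 3 arrays), an eBayes trend, array weights, a fit on a comparison's own arrays, the replicate number as a block, paralogs by the letters T, R, R1 and R2 only, and leaving out each array. In simulated data for the MN 45d comparison with 18769 probe sets, 30% of 100 changes of 0.3 and 95% of 100 changes of 0.6 were found, with 5 false calls. The simulated noise was independent between probe sets, and no other probe set was changed. In the data 5.18% of probe sets rose and 4.84% fell in that comparison, so these rates check the procedure and need not hold for the data.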

Additional observations from a re-analysis of the deposited data

Results flagged for a closer look

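For 4 member genes the G85R effect differed between ages or drivers by a test of the difference itself. The effect on Prosbeta5R1 was higher at 45d than at 5d in MN by 0.385 (limma adjusted p = 0.032). The effect on Rpt3R was higher at 45d by 0.427 in glia (adjusted p = 0.014) and by 0.357 in MN+glia (adjusted p = 0.034). That on Prosalpha4T1 was higher at 45d by 0.479 in MN+glia (adjusted p = 0.038). That on Prosbeta2R2 at 5d differed by -0.392 between MN+glia and MN (adjusted p = 0.041). The last 3 values, all with MN+glia, were not called without the degraded array. The call of Prosbeta5R1 in MN was lost in 7 of 20 alternatives and that of Rpt3R in glia in 2 of 20. Members were called in 3.33% of tests of the change with age, beside 2.36% of all probe set tests. For differences between drivers the shares were 0.417% and 1.11%.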

How the results depend on the processing

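Of 36 ageing values of named members, 1 lost its call in an alternative (Prosalpha6T in MN+glia G85R flies, limma adjusted p = 0.073 on its own arrays). These 36 were the 3 largest called changes of each class in each comparison, and the smaller ageing changes named above were not checked this way. Over 106 named values, chosen alike, no alternative turned a direction, while 48 lost the call in at least 1. The number of members called depended on the setting as follows, with the cause not tested. For G85R in MN at 5d, 2 were called and 1 on the comparison's own arrays. In MN at 45d, 3 were called, against 6 on 35 arrays, 5 after quantile or cyclic loess normalisation, with the dim filter or with a trend, and 10 with array weights. In glia at 5d, 2 became 1 after quantile normalisation, 5 with weights and 1 on own arrays, and at 45d 4 became 9 with weights and 8 on own arrays. In MN+glia at 5d, 8 became 1 on 35 arrays, 5 after loess, 4 with weights and 1 on own arrays, and at 45d 3 became 5 with weights and 1 on own arrays. Ageing in MN+glia G85R flies, the ageing comparison that holds the degraded array, gave 24 calls and 7 on own arrays. Changes of the effect with age went from 4 to 11 with the dim filter and 11 with weights. Differences of the effect between drivers went from 1 to 0 on 35 arrays, after loess and on own arrays, 2 after quantile normalisation or with a trend, 3 with the dim filter and 10 with weights. Those between drivers went from 64 to 99 with the dim filter and 112 with weights.

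Leaving out 1 array gave 1 to 5, 2 to 5, 1 to 2, 2 to 4, 1 to 10 and 2 to 3 calls for G85R in MN at 5d and 45d, glia at 5d and 45d and MN+glia at 5d and 45d. For ageing it gave 31 to 34 and 33 to 36 in MN, 26 to 31 and 15 to 19 in glia, and 29 to 33 and 17 to 27 in MN+glia, with dSOD1 first. It gave 2 to 10 changes with age, 0 to 8 differences of the effect between drivers, 52 to 76 between drivers and 37 to 38 in the F test. General rises stayed at 102 to 114 and paralog falls at 68 to 71. By letters alone, which puts Prosalpha4T1 and Prosalpha4T2 with the general genes, paralog falls were 60.

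Samples share only a replicate number. Correlations of same-numbered deviations lay between -0.3 and 0.4, and in 0 of 12 comparisons was every pair over 0.1. With the replicate block the 6 G85R counts were 2, 3, 2, 4, 7 and 3 and general rises 105, and no count moved by over 1.5 times. Dim signal limits Prosbeta4R2, and RNA quality the MN+glia G85R 5d group. Prosbeta5R2 came near the dim level in MN G85R 45d flies, with a mean of 5.97. The mean over a gene's probe sets changed nothing, since each member had 1.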
